A study of Mus musculus with 12 samples.

Results

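Tubulin and cortactin are substrates of the cytoplasmic enzyme histone deacetylase 6 (HDAC6), and the RNA of their genes was followed here in liver together with that of Sirt2, a further tubulin deacetylase. The set held 10 genes chosen by gene symbol: the alpha-tubulins Tuba1a, Tuba1b, Tuba1c and Tuba4a, the beta-tubulins Tubb2a, Tubb4b, Tubb5 and Tubb6, cortactin (Cttn) and the deacetylase Sirt2. They are 10 of the 13319 gene symbols on the array and were read by 25 of its 22626 probe sets. Each of 12 Affymetrix Mouse430A arrays held RNA from the liver of female C57BL/6 animals, 8 to 12 weeks old, with 3 arrays a group. The 4 groups lacked HDAC6, lacked HDAC9, or were wild type and fed, after weaning, either a high-fat diet, with fat giving 60% of the energy, or regular chow, with 25%. The diet of the knockouts was not given in the sources used here. The labels number the arrays of a group without saying that each is a separate mouse, and a p-value therefore reflects the variation among these arrays, which may be technical. Values are log2 expression, on which a difference of 1 is a doubling, and the levels of different probe sets cannot be set against each other.

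Alpha- and beta-tubulin proteins pair into dimers that build microtubules, the tracks on which hepatocytes move lipoprotein and bile transporter vesicles. HDAC6 removes the acetyl group that alpha-tubulin carries inside the microtubule and also deacetylates cortactin, a protein that stabilises branched actin, while Sirt2 is an NAD-dependent enzyme that deacetylates tubulin as well. These are changes to proteins that the arrays do not see, whereas tubulin RNA is also known to be controlled by its own product, because free tubulin dimers trigger the decay of tubulin RNA that is being translated.

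The deleted gene Hdac6 read 6.17, 6.16 and 6.50 in the HDAC6 knockout, 7.96, 7.95 and 8.03 in the HDAC9 knockout, 7.45, 7.97 and 7.80 on the high-fat diet, and 7.89, 7.98 and 7.86 on chow. All 3 HDAC6 knockout arrays lay below the other 9. Its level fell by 1.63 (SE 0.133) on the log2 scale in the HDAC6 knockout against chow (limma, adjusted p = 6.79e-05). The Hdac9 probe set lay between 4.04 and 4.53 on all 12 arrays and set no group apart, so it gave no check of the HDAC9 label. Array medians ran from 5.78 to 5.86, correlations between arrays from 0.987 to 0.997, and the hepatocyte marker Alb from 14.16 to 14.25. Markers of the exocrine pancreas stood above their 12-array mean, by a median of 3.74, on HDAC9 knockout replicate 2 and by 0.40 on replicate 1, and were below it elsewhere.

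None of the 10 genes passed the test in any of the 6 comparisons among the 4 groups. Of the 10, 8 could be tested with the 12393 genes that had a probe set of their own, and 0 of 8 passed the F test over the 4 groups (limma, Benjamini-Hochberg adjusted p between 0.882 for Cttn and 0.989 for Tuba4a), where 0.331% of all genes passed. Tuba1b and Tuba1c had only probe sets that the annotation shares with the pseudogenes Gm5620 and Gm6682, so they were tested among all probe sets, where their adjusted p in the 3 comparisons with chow lay between 0.909 and 0.988. For HDAC6 knockout against chow 0 of 8 genes were called, and 0 of 8 had an unadjusted p under 0.05, against 0.0161% and 5.77% of all genes. The same 2 counts were 0 and 0 for HDAC9 knockout against chow, where the shares over all genes were 0.0968% and 6.08%, and 0 and 0 for high-fat against chow, where they were 0.29% and 8.48%. No gene of the 8 had arrays that did not overlap between groups, in any comparison, while 10.1%, 12.6% and 14.7% of all genes did in those 3 comparisons with chow. The comparisons with chow share the chow arrays. Whole liver holds several cell types, and fewer cells of a type cannot be told apart from less RNA per cell.

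**Figure D1:**
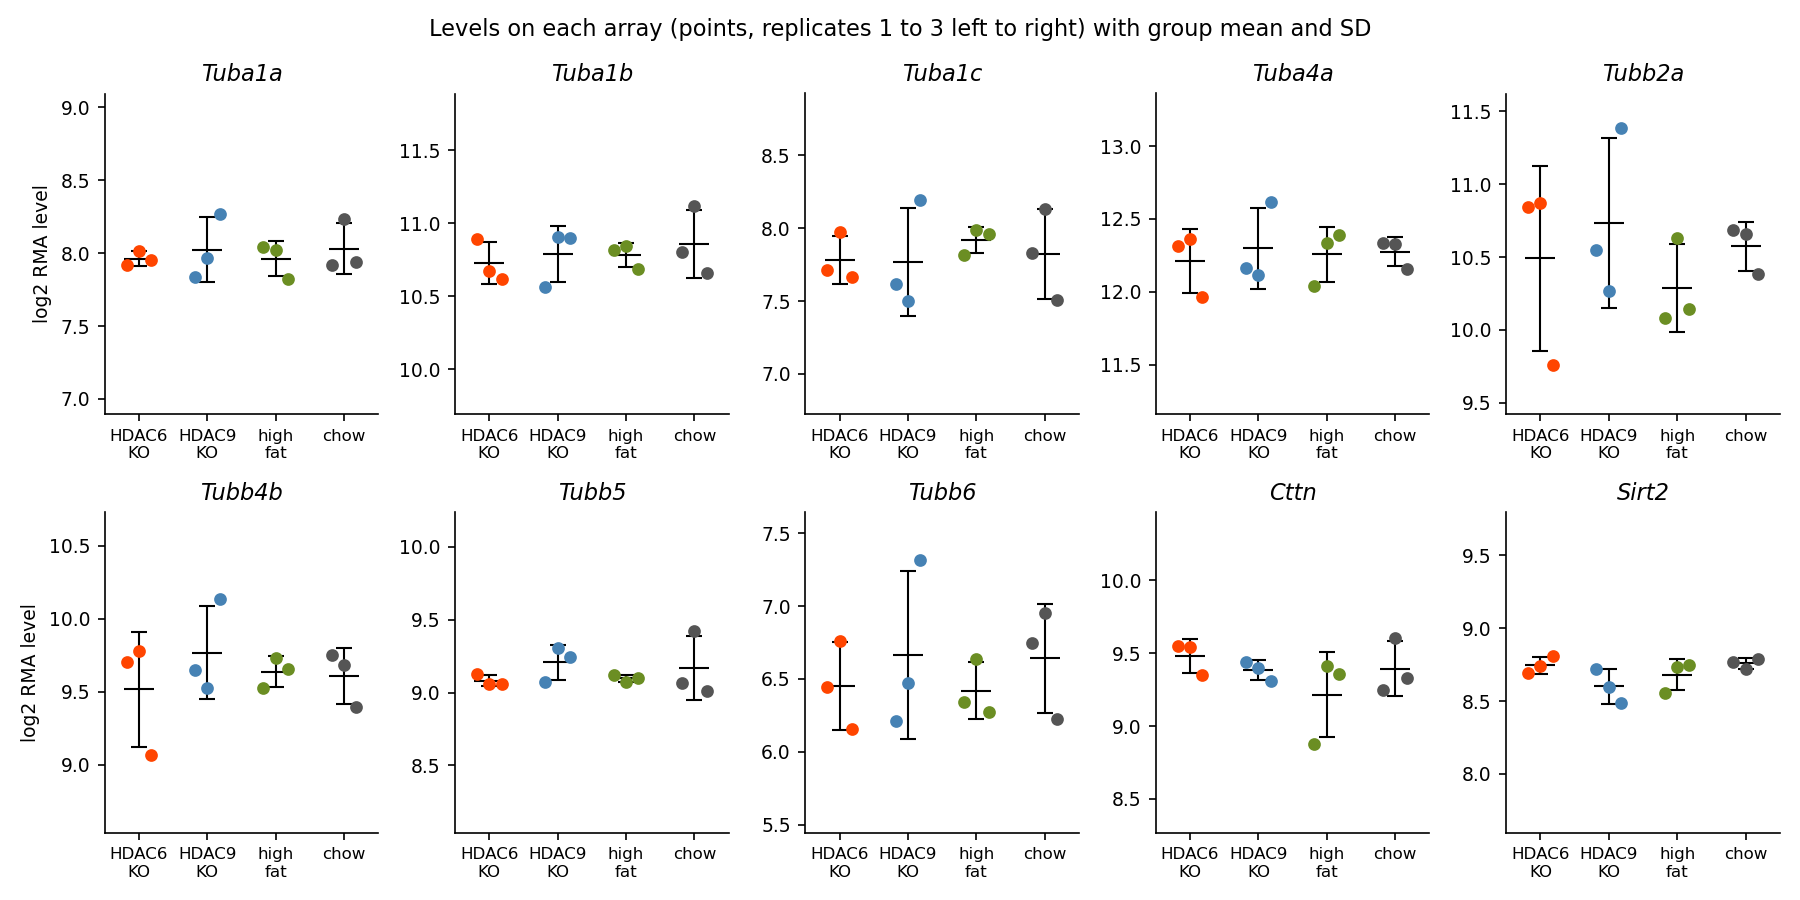
Log2 level (y axis, a scale of its own in each panel) of the 10 genes on each of 12 liver arrays, with 1 point per array and a line at the mean and a bar of 1 SD for each group of 3 (HDAC6 knockout, HDAC9 knockout, high-fat diet, chow). In every panel the 4 groups overlap, and HDAC6 knockout replicate 3 and HDAC9 knockout replicate 3 lie at the ends of the Tubb2a panel, at 9.76 and 11.39.

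Tuba1a, an alpha-tubulin best known from developing neurons, was read by probe set 1418884_x_at. Its level was 7.92, 8.02 and 7.95 in the HDAC6 knockout, 7.83, 7.97 and 8.27 in the HDAC9 knockout, 8.04, 8.02 and 7.82 on the high-fat diet, and 7.92, 8.23 and 7.94 on chow. All groups overlapped, and the largest spread was within the HDAC9 knockout. The log2 difference between HDAC6 knockout and chow was -0.07 (SE 0.126, 95% interval -0.34 to 0.20, limma adjusted p = 0.967).

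The broadly expressed alpha-tubulin Tuba1b, on probe set 1423846_x_at, had levels of 10.89, 10.67 and 10.62 in the HDAC6 knockout, 10.57, 10.91 and 10.90 in the HDAC9 knockout, 10.82, 10.84 and 10.69 on the high-fat diet, and 10.80, 11.12 and 10.66 on chow. The highest of the 12 was chow replicate 2, and all 4 groups overlapped. HDAC6 knockout minus chow was -0.13 (SE 0.128, 95% interval -0.40 to 0.14, limma adjusted p = 0.927).

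Tuba1c, a further member of the alpha-tubulin cluster, was read by 1448232_x_at at 7.71, 7.97 and 7.66 in the HDAC6 knockout, 7.62, 7.50 and 8.19 in the HDAC9 knockout, 7.82, 7.98 and 7.96 on the high-fat diet, and 7.83, 8.13 and 7.51 on chow. The HDAC9 knockout held both the lowest and the highest array of the 12. The difference of HDAC6 knockout from chow was -0.04 (SE 0.181, 95% interval -0.43 to 0.35), and that of high-fat from chow was 0.10 (95% interval -0.29 to 0.49), with limma adjusted p-values of 0.988 and 0.918. The x in the names of these 3 alpha-tubulin probe sets means that some of their probes match other sequences, so signal from near-identical tubulin genes and pseudogenes may be shared among them.

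Tuba4a, the alpha-tubulin whose reading frame lacks the final tyrosine that most other isotypes carry, was read by 1417373_a_at. Levels were 12.31, 12.36 and 11.96 in the HDAC6 knockout, 12.16, 12.12 and 12.62 in the HDAC9 knockout, 12.04, 12.34 and 12.39 on the high-fat diet, and 12.34, 12.33 and 12.16 on chow. HDAC6 knockout replicate 3 was the lowest array and HDAC9 knockout replicate 3 the highest, with every group overlapping. The differences from chow were -0.06, 0.02 and -0.02 for the HDAC6 knockout, the HDAC9 knockout and the high-fat diet, each with an SE of 0.141 (limma adjusted p between 0.972 and 0.989).

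Among the beta-tubulins, Tubb2a, an isotype abundant in brain, varied most between arrays of a group. Probe set 1427347_s_at read 10.85, 10.87 and 9.76 in the HDAC6 knockout, 10.55, 10.27 and 11.39 in the HDAC9 knockout, 10.08, 10.63 and 10.15 on the high-fat diet, and 10.69, 10.66 and 10.38 on chow. A single array in each knockout, replicate 3 of both, lay far from the other 2, low in the HDAC6 knockout and high in the HDAC9 knockout. HDAC6 knockout minus chow was -0.08 (SE 0.292, 95% interval -0.71 to 0.54, limma adjusted p = 0.986), which leaves folds between 0.612 and 1.45 within the interval. Without HDAC6 knockout replicate 3 the same difference was 0.28 (adjusted p = 0.929). The high-fat diet minus chow was -0.29 (95% interval -0.91 to 0.34, adjusted p = 0.836), and the high-fat diet minus HDAC9 knockout was -0.45 (95% interval -1.07 to 0.18, adjusted p = 0.821). Without HDAC9 knockout replicate 3 the last of these was -0.12, and HDAC9 knockout minus chow was -0.17, against 0.16 with all arrays.

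Tubb4b, a broadly expressed isotype that is also a main tubulin of cilia, was read by 1423642_at. It stood at 9.70, 9.78 and 9.07 in the HDAC6 knockout, 9.65, 9.53 and 10.13 in the HDAC9 knockout, 9.52, 9.73 and 9.65 on the high-fat diet, and 9.75, 9.68 and 9.39 on chow. The lowest and highest arrays were the same as for Tubb2a and Tuba4a. HDAC6 knockout minus chow was -0.09 (SE 0.185, 95% interval -0.49 to 0.30), HDAC9 knockout minus chow was 0.16 (95% interval -0.23 to 0.56), and HDAC9 knockout minus HDAC6 knockout was 0.25 (95% interval -0.14 to 0.65), with limma adjusted p-values of 0.969, 0.919 and 1.00.

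Tubb5, a beta-tubulin expressed in most cell types, was read by 1416256_a_at at 9.13, 9.06 and 9.06 in the HDAC6 knockout, 9.07, 9.30 and 9.24 in the HDAC9 knockout, 9.12, 9.07 and 9.10 on the high-fat diet, and 9.07, 9.42 and 9.01 on chow. Chow held both the lowest and the highest array. The difference of HDAC6 knockout from chow was -0.08 (SE 0.110, 95% interval -0.32 to 0.15, limma adjusted p = 0.952).

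The divergent isotype Tubb6, on probe set 1416431_at, read 6.44, 6.76 and 6.16 in the HDAC6 knockout, 6.21, 6.47 and 7.31 in the HDAC9 knockout, 6.34, 6.64 and 6.28 on the high-fat diet, and 6.74, 6.95 and 6.22 on chow. HDAC6 knockout replicate 3 was again the lowest array and HDAC9 knockout replicate 3 the highest, and all 4 groups overlapped. HDAC6 knockout minus chow was -0.19 (SE 0.253, 95% interval -0.73 to 0.35), and high-fat minus chow was -0.22 (95% interval -0.76 to 0.32), with limma adjusted p-values of 0.959 and 0.854.

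Cortactin, on probe set 1433908_a_at, read 9.55, 9.54 and 9.35 in the HDAC6 knockout, 9.44, 9.40 and 9.31 in the HDAC9 knockout, 8.88, 9.41 and 9.35 on the high-fat diet, and 9.25, 9.61 and 9.33 on chow. High-fat replicate 1 was the lowest array, and the other 2 high-fat arrays lay within the range of the remaining groups. HDAC6 knockout minus chow was 0.09 (SE 0.137, 95% interval -0.21 to 0.38, limma adjusted p = 0.964). High-fat minus HDAC6 knockout was -0.27 (95% interval -0.56 to 0.03, limma adjusted p = 0.762), and no other comparison of the 10 genes had a smaller unadjusted p. Without high-fat replicate 1 that difference was -0.10 (adjusted p = 1.00).

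Sirt2, the other tubulin deacetylase, had the narrowest spread of the 8 genes tested. Probe set 1423507_a_at read 8.69, 8.74 and 8.81 in the HDAC6 knockout, 8.72, 8.60 and 8.48 in the HDAC9 knockout, 8.56, 8.73 and 8.75 on the high-fat diet, and 8.77, 8.72 and 8.79 on chow. The 3 HDAC6 knockout arrays lay on both sides of the chow arrays, and HDAC9 knockout replicate 3 was the lowest of the 12. Where HDAC6 is missing, the difference from chow was -0.01 (SE 0.0957, limma adjusted p = 0.993), and its 95% interval of the fold ran from 0.860 to 1.14. HDAC9 knockout minus chow was -0.16 (95% interval -0.36 to 0.05, adjusted p = 0.847).

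**Figure D2:**
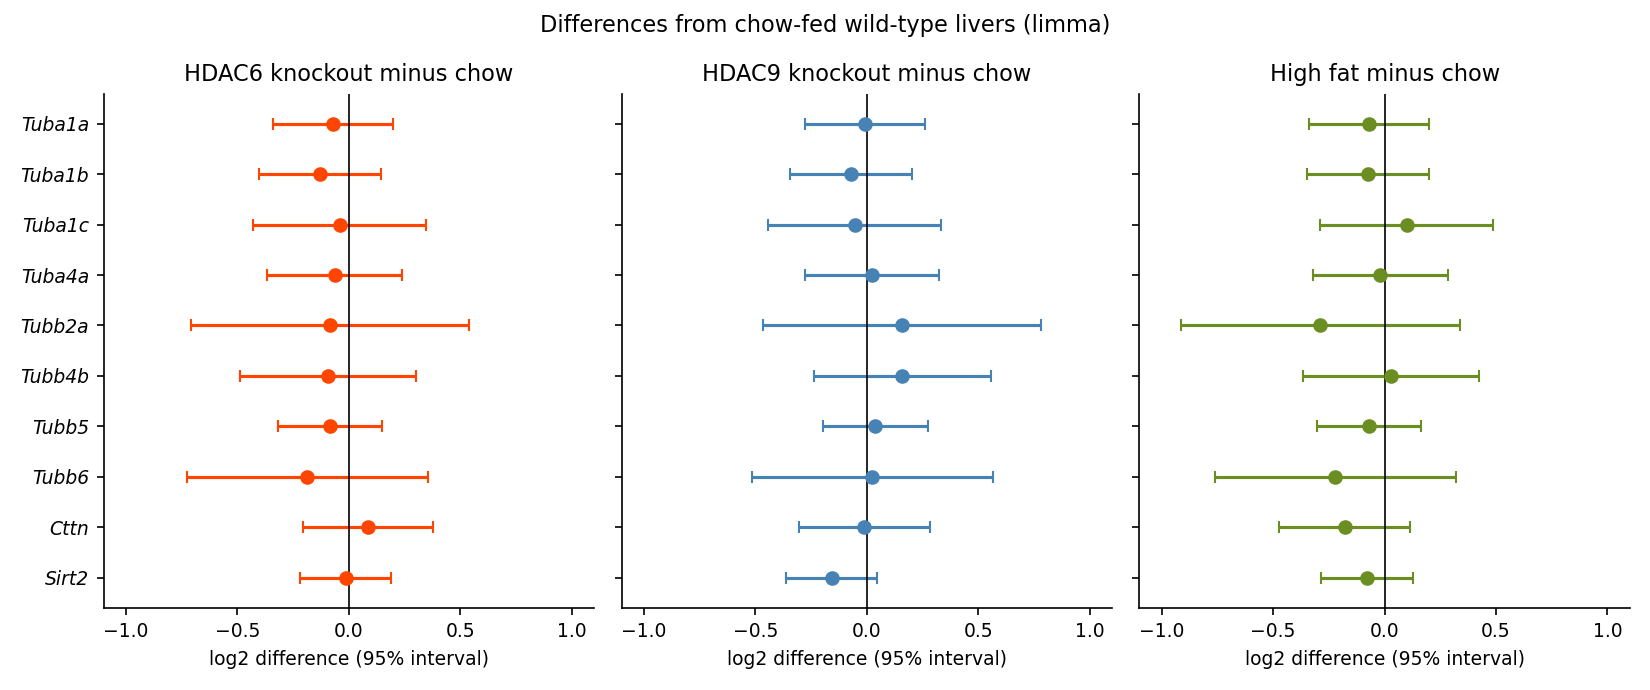
Log2 difference with its 95% interval (x axis) for each of the 10 genes in the comparisons of HDAC6 knockout, HDAC9 knockout and high-fat diet with chow. Every interval includes 0, and the intervals of Tubb2a and Tubb6 are the widest, with Tubb2a in the HDAC6 knockout at -0.71 to 0.54.

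Read together, 7 of the 8 genes had a lower mean in the HDAC6 knockout than on chow, with a median log2 difference of -0.08 over the 8 genes beside -0.01 over all genes. The count of 7 also held after quantile normalization and after median centring, but it was 4 of 8 without HDAC6 knockout replicate 3 and 5 of 8 without chow replicate 2. In size, the median absolute difference was 0.084 for the 8 genes and 0.0907 for all genes. For HDAC9 knockout against chow, 5 of 8 means were higher, with a median of 0.02 beside -0.01, and for the high-fat diet against chow 7 of 8 were lower, with a median of -0.07 beside -0.01. Across the 22 settings, counting the main fit, the number of lower means ranged from 4 to 7 in the HDAC6 knockout, 1 to 6 in the HDAC9 knockout and 4 to 8 on the high-fat diet, each against chow. Several settings, such as the variance trend and the prior, cannot change a mean. The setting without x_at, s_at and a_at probe sets held fewer than 8 genes, with 4 lower and 2 higher in the HDAC6 knockout.

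The remaining comparisons were made between groups other than chow. For HDAC9 knockout against HDAC6 knockout 0 of 8 genes were called by limma and 0 had an unadjusted p under 0.05, where 0.00807% and 3.8% of all genes did. The same counts were 0 and 0 for high-fat against HDAC6 knockout, beside 0.145% and 7.27%, and 0 and 0 for high-fat against HDAC9 knockout, beside 0.436% and 8.1%. In none of these 3 comparisons did the arrays of any of the 8 genes separate without overlap, while those of 8.46%, 13.1% and 13.8% of all genes did.

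None of the other probe sets of these genes passed the adjusted threshold in any comparison. Of the 15 remaining probe sets, 1 had an unadjusted p under 0.05, Cttn 1421314_at, in high-fat against HDAC6 knockout (-0.26, limma adjusted p = 0.657). In that comparison 7.27% of all genes had such a p. The arrays of this probe set did not overlap there (2.78 to 2.84 against 3.00 to 3.23). Its level of 2.76 to 3.23 puts its mean at the 7.87th percentile of all probe sets. The second cortactin probe set, 1423917_a_at, followed the first with a Pearson r of 0.853 over the 12 arrays. It read 8.81, 8.91 and 8.88 in the HDAC6 knockout and 8.70, 8.77 and 8.67 on chow, with a difference of 0.16 (SE 0.113, limma adjusted p = 0.908). These groups did not overlap, as was so for 10.1% of all genes in this comparison. The HDAC9 knockout arrays of this probe set (8.65 to 8.80) also lay below its HDAC6 knockout arrays. Against this, 1421313_s_at read 4.67, 4.80 and 4.73 in the HDAC6 knockout and 4.99, 4.46 and 4.78 on chow, a difference of -0.01 (limma adjusted p = 0.997), and had an r of -0.266 with the first. Its HDAC9 knockout and high-fat arrays all lay above its HDAC6 knockout arrays, by 0.30 and 0.27 on average (limma adjusted p = 1.00 and 0.840). A further one, 1421315_s_at, read 4.76 on chow replicate 2 and between 6.16 and 6.45 on the other 11 arrays, and its differences from chow, from 0.51 to 0.59, all include that array. For Tuba4a, 1417374_at followed the first probe set with an r of 0.947, whereas 1417375_at ran against it, with an r of -0.583 and a range of 6.40 to 6.85. Tubb2a had a second probe set, 1427838_at, that read 6.38, 6.69 and 5.64 in the HDAC6 knockout and 5.86, 5.84 and 6.01 on chow. HDAC6 knockout minus chow was 0.33 there (SE 0.259, limma adjusted p = 0.914), opposite in sign to the first, and its r with the first was 0.736. Tubb4b had 5 further probe sets, with r between -0.339 and 0.740 against the first. Separation was not particular to cortactin. Tubb5 1455719_at read 7.85 to 8.02 in the HDAC9 knockout and 7.59 to 7.81 on the high-fat diet. On Tubb4b 1456470_x_at, high-fat arrays (6.44 to 6.59) lay above chow (6.24 to 6.37). On Tubb4b 1438622_x_at, high-fat arrays (4.26 to 4.43) lay above the HDAC6 (4.15 to 4.24) and HDAC9 (4.12 to 4.23) knockouts. Over all genes, the share whose arrays did not overlap ran from 8.46% to 14.7% in the 6 comparisons. The share of all probe sets that separate was not counted.

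The genes differed in how much they varied between arrays of the same group. Tubb2a had a within-group standard deviation of 0.463 on the log2 scale, at the 98.8th percentile of all 12393 genes, and Tubb6 had 0.388, at the 98.0th. Compared only with the 1000 genes nearest in mean level, these percentiles were 98.3 and 97.0. Tubb4b had 0.276, Tuba4a 0.206, Cttn 0.186, Tuba1a 0.155 and Tubb5 0.128, beside a median of 0.152 over all genes. Sirt2, at 0.0868, stood at the 7.28th percentile. The Tubb2a value was 0.361 without HDAC6 knockout replicate 3 and 0.393 without HDAC9 knockout replicate 3, at the 97.4th and 98.1st percentiles, and the Tubb6 value was 0.286 without HDAC9 knockout replicate 3. The Cttn value was 0.124 without high-fat replicate 1, and that of Tubb5 was 0.0706 without chow replicate 2.

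**Figure D3:**
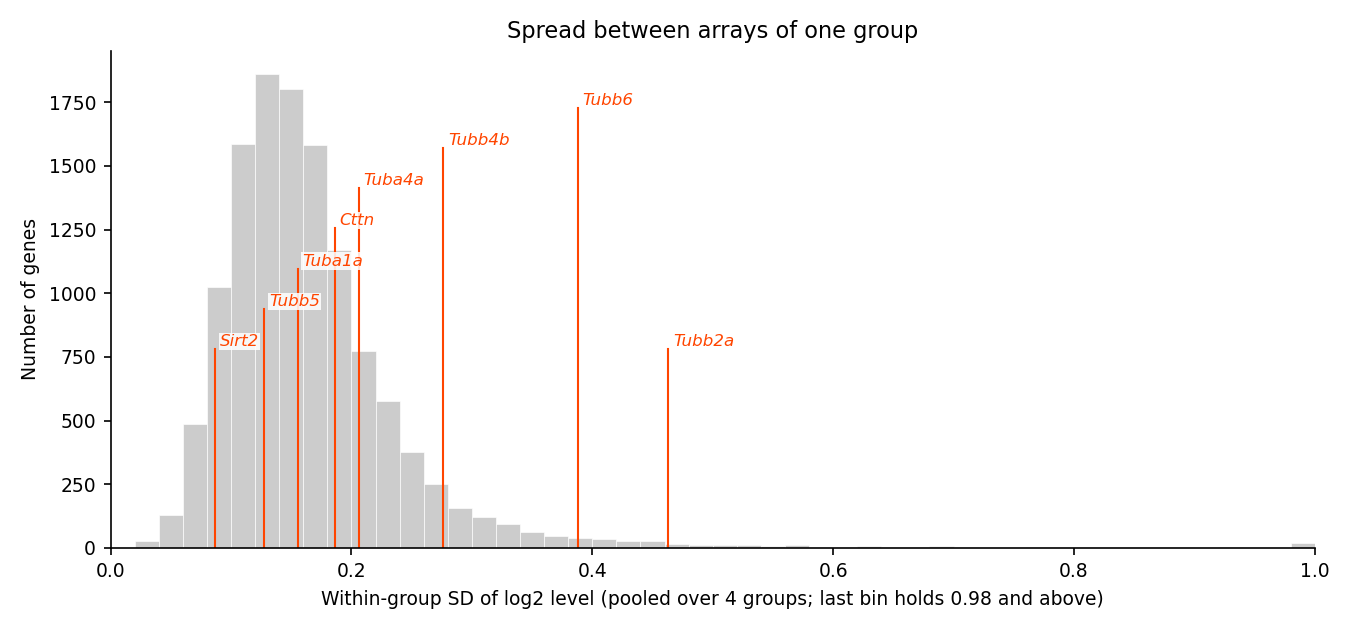
Histogram of the within-group standard deviation (x axis, log2 units, last bin open) over all 12393 genes (y axis, number of genes), with a vertical line at each of the 8 tested genes. Tubb2a (0.463) and Tubb6 (0.388) lie in the right tail, and Sirt2 (0.0868) lies left of the median of 0.152.

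Several tubulins varied together from array to array. Over the 12 arrays, levels of Tuba4a and Tubb4b had a Pearson r of 0.905 and a Spearman rho of 0.867 (permutation p = 8.00e-05 and 0.000460, adjusted over the 45 pairs 0.00225 and 0.00765). Tubb2a and Tubb4b had an r of 0.899 and a rho of 0.895 (permutation p = 0.000150 and 0.000260, adjusted 0.00225 and 0.00765). For Tuba4a and Tubb2a the r was 0.843 and the rho 0.699 (permutation p = 0.000850 and 0.0146, adjusted 0.00874 and 0.0599), so the rank correlation of that pair missed the threshold. After each group's mean was subtracted, r was 0.923, 0.965 and 0.888 for these 3 pairs.

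Tubb6 and Tuba1c were linked to these genes too. Tubb6 had an r of 0.814 and a rho of 0.769 with Tubb2a (adjusted permutation p = 0.00874 and 0.0379), and an r of 0.799 and a rho of 0.825 with Tubb4b (adjusted 0.00874 and 0.0211). With Tuba4a its r was 0.788 and its rho 0.650 (adjusted permutation p = 0.0110 and 0.0864), so the rank correlation missed the threshold. That r was 0.529 without HDAC6 and HDAC9 knockout replicate 3 (permutation p = 0.117, n = 10). Tuba1c had an r of 0.752 with Tuba4a, 0.674 with Tubb4b and 0.778 with Tubb6, and its rho with them lay between 0.741 and 0.748 (adjusted permutation p at most 0.0432 for r and 0.0394 for rho). Without the 2 arrays farthest from the median of Tubb2a, r of Tubb2a and Tubb6 was 0.593 (permutation p = 0.0729, n = 10). For Tubb4b and Tubb6, without those farthest from the median of Tubb4b, it was 0.629 (permutation p = 0.0494, n = 10). For Tuba1c, HDAC9 knockout replicates 2 and 3 were left out. Its r was then 0.621 with Tuba4a, 0.555 with Tubb4b and 0.775 with Tubb6 (permutation p = 0.0576, 0.0923 and 0.0108, n = 10). Several of these r are alike though their p fall on either side of 0.05. Leaving out the extreme arrays of a gene tends to lower r by itself, so the values do not sort the pairs.

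Both ends of the pattern in Tuba4a, Tubb2a and Tubb4b were single arrays, HDAC6 knockout replicate 3 at the low end and HDAC9 knockout replicate 3 at the high end. Without those 2 arrays, which lay farthest from the median, r was 0.769 for Tuba4a and Tubb4b and 0.693 for Tubb2a and Tubb4b (permutation p = 0.00905 and 0.0255, n = 10 arrays). For Tuba4a and Tubb2a it was 0.571 (permutation p = 0.0879, n = 10), so that relation did not pass 0.05 without those arrays. With the second Tubb2a probe set in place of the first, r with Tubb4b was 0.568 (permutation p = 0.0541). Hepatocyte markers stood 0.03 above their 12-array mean on both of those arrays, stellate cell markers 0.03 and 0.05 above it on HDAC6 and HDAC9 knockout replicate 3, and endothelial markers 0.05 and 0.00. Other lists differed between these arrays in the direction of the tubulins: cholangiocyte markers stood at -0.12 and 0.22, adipocyte markers at -0.26 and 0.11, erythroid markers at -0.24 and -0.08, and the tubulin folding genes at -0.08 and 0.12, their lowest and highest of the 12 arrays. The cell cycle list stood at -0.04 and -0.22, Kupffer cell markers at -0.06 and -0.13, lymphocyte markers at -0.01 and -0.26, exocrine pancreas markers at -0.39 and -0.41, and neutrophil markers at 0.24 and 0.20. Of the further lists, other tubulin genes stood at -0.06 and 0.07, microtubule-associated genes at -0.09 and 0.04, and motors at -0.04 and 0.03. Other HDAC6 substrates and partners stood at -0.10 and 0.04. The gamma-tubulin complex stood at -0.10 and -0.04, and branched actin at -0.06 and -0.04. Genes that modify tubulin went the other way, at 0.13 and 0.07. The part of these lists in the pattern was not tested.

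**Figure D4:**
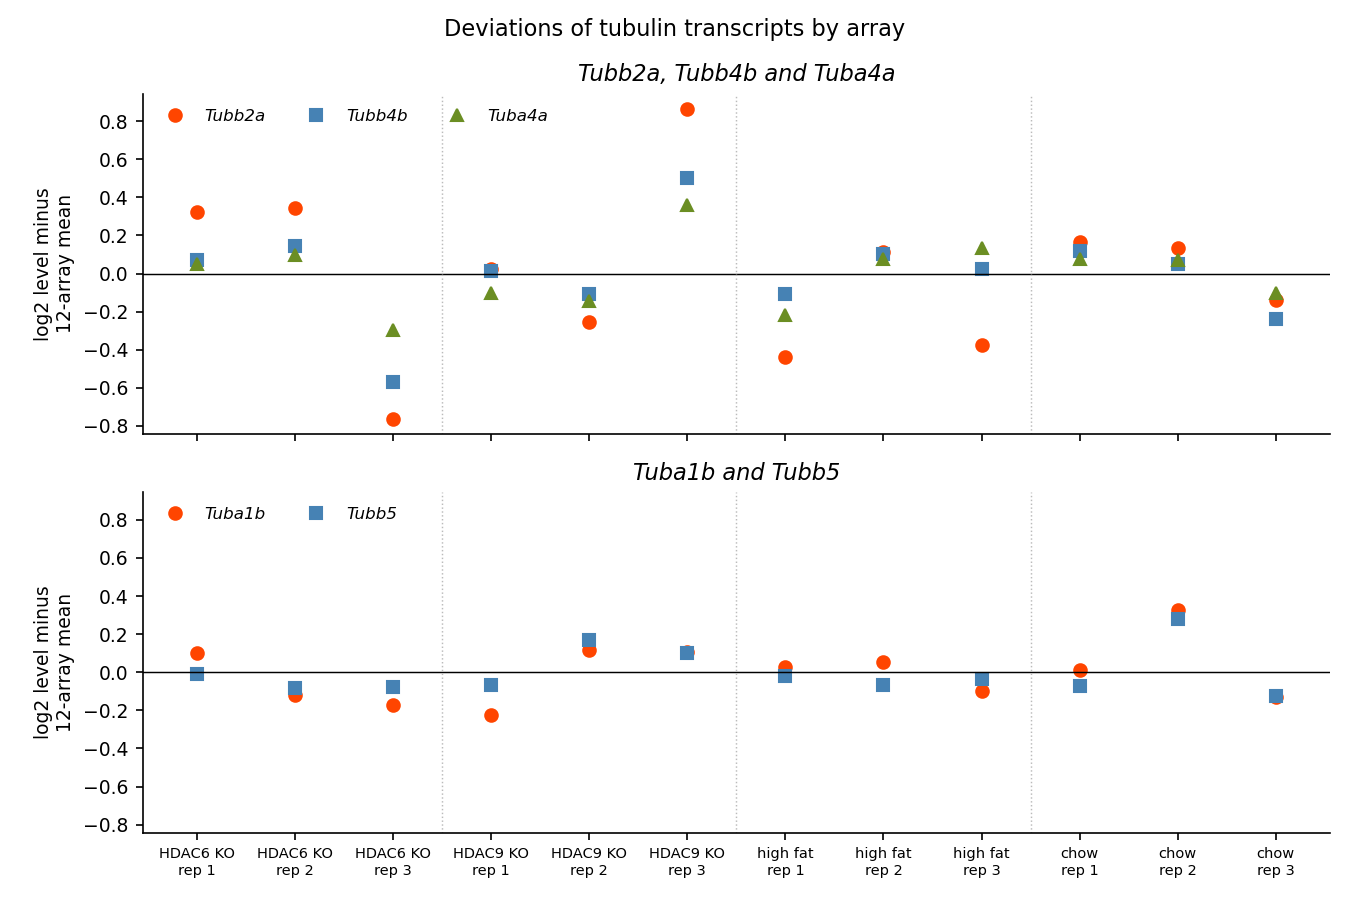
Deviation of each gene's log2 level from its 12-array mean (y axis) on each of the 12 arrays (x axis, by group and replicate) for Tubb2a, Tubb4b and Tuba4a in one panel and Tuba1b and Tubb5 in the other. The first 3 genes are lowest on HDAC6 knockout replicate 3 and highest on HDAC9 knockout replicate 3, while Tuba1b and Tubb5 are highest on chow replicate 2.

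A second pair followed other arrays. Tuba1b and Tubb5 had an r of 0.840 and a rho of 0.867 (permutation p = 0.000130 and 0.000510, adjusted 0.00225 and 0.00765), with both highest on chow replicate 2. Without the 2 arrays farthest from the median of Tuba1b, HDAC9 knockout replicate 1 and chow replicate 2, r was 0.732 (permutation p = 0.00924, n = 10). With the other Tubb5 probe set it was 0.426 (permutation p = 0.165). The 2 beta-tubulins Tubb4b and Tubb5 had an r of 0.281 (permutation p = 0.345, adjusted 0.443). Of all 45 pairs, 12 passed the threshold by Pearson's r after adjustment and 8 by both measures. No pair with cortactin did, its r with the other 9 genes lying between 0.0413 and 0.374, and Sirt2 passed only by rank, with Tubb5 (rho -0.797, adjusted permutation p = 0.0274, r -0.489, adjusted 0.201). The r of Sirt2 was negative with all 8 tubulins over the 12 arrays, but without HDAC6 and HDAC9 knockout replicate 3 it was 0.661 with Tuba4a, 0.464 with Tubb2a and 0.284 with Tubb4b (permutation p = 0.0350, 0.178 and 0.434, n = 10). With the remaining tubulins r stayed negative without the 2 arrays farthest from the median of each, but these were other arrays. It was -0.873 with Tubb5, -0.728 with Tuba1b, -0.372 with Tuba1a, -0.197 with Tuba1c and -0.0674 with Tubb6. All of these kept HDAC6 knockout replicate 3, the highest array of Sirt2. The signs therefore do not set Tuba4a, Tubb2a and Tubb4b apart from the remaining tubulins. Tuba1a and Tubb6 had an r of 0.824 (adjusted permutation p = 0.00874) but a rho of 0.643 (adjusted 0.0891). Without HDAC9 knockout replicate 3 and chow replicate 2, r was 0.450 (permutation p = 0.191, n = 10). As leaving out extreme arrays tends to lower r by itself, this does not tell that pair from the others.

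**Figure D5:**
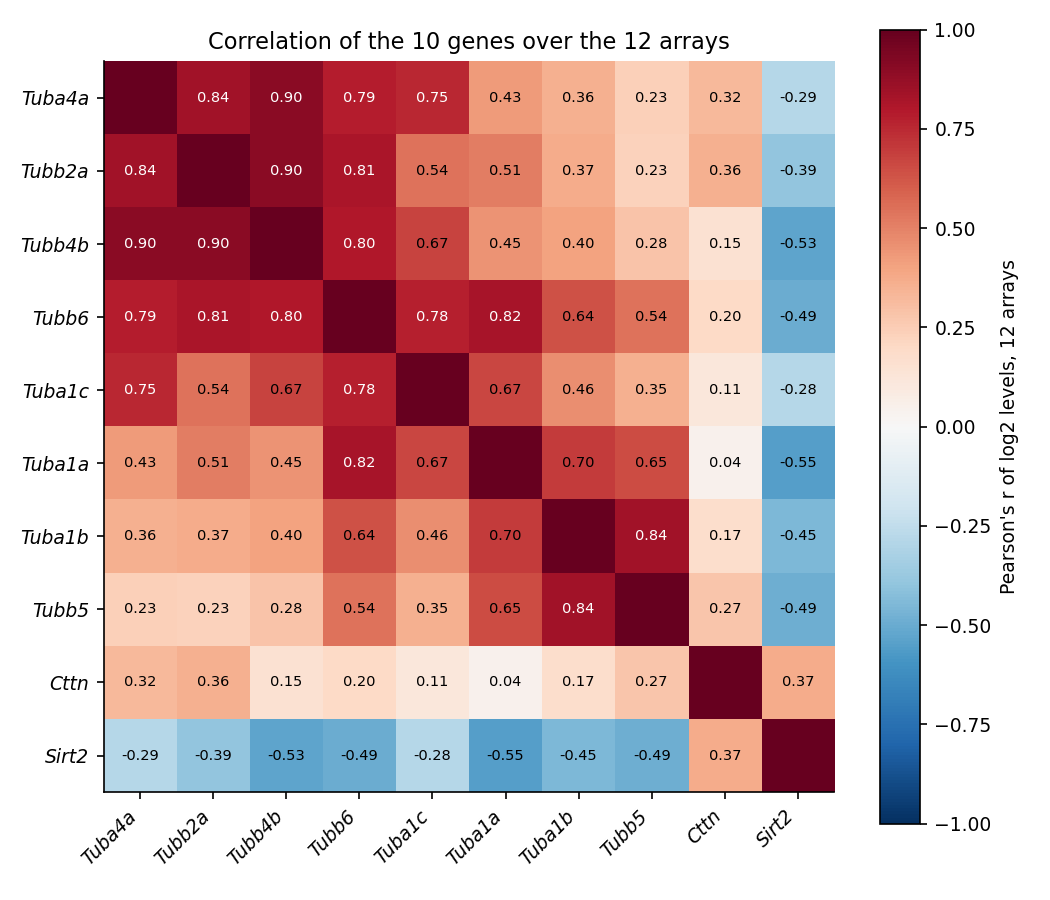
Pearson r over the 12 arrays for each pair of the 10 genes (rows and columns, colour from -1 to 1). Tuba4a, Tubb2a and Tubb4b form a block with r from 0.843 to 0.905, Tuba1b and Tubb5 share 0.840, and the row of Sirt2 is negative with all 8 tubulins on the full set of arrays, with Tuba4a, Tubb2a and Tubb4b at 0.661, 0.464 and 0.284 once HDAC6 and HDAC9 knockout replicate 3 are left out.

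Set among all genes on the array, some tubulins were near each other and others far apart. Of the 12392 other genes, the 2 whose levels followed Tubb4b most closely were Tuba4a and Tubb2a, ahead of Aarsd1 (r 0.866). For Tuba4a the closest was Tubb4b, followed by Vac14 (0.895) and the tRNA synthetase genes Aars (0.890) and Farsb (0.887), and for Tubb2a it was the fourth, after Palld (0.914), Xrcc6 (0.906) and Phf21a (0.903). Tubb5 lay closest to the 14-3-3 gene Ywhah (0.953), and Tubb4b was the 3361st gene from it (r 0.281). Cortactin lay closest to Ncoa1 (0.971), Trrap (0.968) and Parp4 (0.941), and Sirt2 to Itih2 (0.855). These neighbours were named after their values were seen, all rest on the same 12 arrays, and the r values are a description.

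The promoters of Tubb2a, Tubb4b and Tuba4a, which had their lowest and highest arrays in common, are shown for what they do and do not share in sequence. RefSeq (GRCm38.p6) gave the 250 bases before the transcript start of 8 of the 10 genes, but not of Tubb6 and Cttn. Tubb6 had the same lowest and highest arrays as these 3 genes, so its promoter is missing from the comparison. The windows are chr13:34078009-34078258 for Tubb2a, chr2:25224703-25224952 for Tubb4b and chr1:75219295-75219544 for Tuba4a, all on the minus strand and printed 5′ to 3′ on the strand of the gene. Capitals mark the motif CCAAT, the TATA box core TATAA and the cyclic AMP response element TGACGTCA, each searched on both strands, and no matches overlapped.
Tubb2a: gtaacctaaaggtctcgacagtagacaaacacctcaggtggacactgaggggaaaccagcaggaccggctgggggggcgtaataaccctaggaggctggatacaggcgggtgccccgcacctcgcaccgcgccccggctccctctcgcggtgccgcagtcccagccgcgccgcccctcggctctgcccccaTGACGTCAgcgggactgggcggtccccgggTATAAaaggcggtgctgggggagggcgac
Tubb4b: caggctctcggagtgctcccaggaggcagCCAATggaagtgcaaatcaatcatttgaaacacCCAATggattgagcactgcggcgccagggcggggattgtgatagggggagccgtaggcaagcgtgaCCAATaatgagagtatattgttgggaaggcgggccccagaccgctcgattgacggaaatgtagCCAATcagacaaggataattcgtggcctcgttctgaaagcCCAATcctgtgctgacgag
Tuba4a: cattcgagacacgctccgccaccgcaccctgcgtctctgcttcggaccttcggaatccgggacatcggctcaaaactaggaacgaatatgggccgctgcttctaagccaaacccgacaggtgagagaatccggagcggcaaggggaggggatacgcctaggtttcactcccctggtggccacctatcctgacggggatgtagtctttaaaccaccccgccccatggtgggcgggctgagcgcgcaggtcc
Tubb4b held 5 CCAAT, a motif present at least 1 time in 33.8% of all 32851 promoter windows of this length. The share of windows with 5 was not counted. Tubb2a held 1 TATAA, which starts 29 bases before the transcript start and occurs in 22.8% of windows, and 1 TGACGTCA, 59 bases before it, which occurs in 1.55%. Tuba4a held none of the 3 motifs. GC content was 68.4% for Tubb2a, 54.4% for Tubb4b and 61.6% for Tuba4a, beside a median of 52.4%. Of the other pair, Tubb5 held 2 CCAAT and Tuba1b none of the 3 motifs. A match describes the letters in the window and shows no binding.

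In 8 lists of the wider tubulin, actin and HDAC6 machinery, chosen by role, Hdac6 was the only gene called by limma in the 3 comparisons with chow. Of 12 other tubulin genes, 8 were measured and 7 of 8 had a lower mean in the HDAC6 knockout than on chow, with Tubg1, the gamma-tubulin of centrosomes, at -0.41 (SE 0.147, adjusted p = 0.759) and the alpha-tubulin Tuba8 at -0.54 (SE 0.200, adjusted p = 0.760). In the gamma-tubulin complex, which nucleates microtubules, 3 of the 6 measured genes were higher and 3 lower, with Tubgcp2 at 0.34 (adjusted p = 0.810). Among 21 genes of tubulin folding, including the CCT chaperonin and the tubulin cofactors, 6 were higher and 15 lower, with Tbcel at 0.35 (adjusted p = 0.816) and Cct3 at -0.18 (adjusted p = 0.883). Of 8 genes that modify tubulin, Hdac6 was called and the deglutamylase Agbl5 stood at 0.31 (adjusted p = 0.836).

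Microtubule-associated genes had 9 higher and 14 lower means of 23 in the HDAC6 knockout against chow. Stmn1, whose product stathmin binds free tubulin dimers, was at -0.82 in the HDAC6 knockout (SE 0.228, limma adjusted p = 0.625) and at -1.01 in the HDAC9 knockout (SE 0.228, adjusted p = 0.229), each against chow. Stmn1 is also expressed in dividing cells, and the cell cycle list had lower means in 20 of 23 genes in the HDAC6 knockout and 19 of 23 in the HDAC9 knockout, with 0 called by limma. Of the 23 genes, 5 and 9 had an unadjusted p under 0.05 in these comparisons, beside 5.77% and 6.08% of all genes. The part of dividing cells in the Stmn1 difference was not tested. Motor genes had 12 higher and 7 lower means of 19, with the dynein light chain Dynll1 at -0.58 (adjusted p = 0.722) in the HDAC6 knockout and -0.55 (adjusted p = 0.354) on the high-fat diet, each against chow. The 20 measured genes of cortactin and branched actin split into 8 higher and 12 lower, and the smallest p was that of Cttnbp2nl, at -0.25 (adjusted p = 0.865). Over the 8 lists, the median log2 difference of HDAC6 knockout from chow ran from -0.06 for folding and other tubulin genes to 0.02 for motors, beside -0.01 over all genes.

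Of 16 other measured substrates and partners of HDAC6, 5 had a higher and 11 a lower mean in the HDAC6 knockout against chow, and 2 of the 16 had an unadjusted p under 0.05, beside 5.77% of all genes. They were Ubxn4, an endoplasmic reticulum protein of the degradation pathway, at 0.46 (SE 0.129, limma adjusted p = 0.662), and Hsp90aa1, the chaperone that HDAC6 is known to deacetylate, at -0.59 (SE 0.206, adjusted p = 0.757). On the high-fat diet the smallest p-values of these lists belonged to Dynll1, the deglutamylase Agtpbp1 at -0.41 (adjusted p = 0.363) and the prefoldin subunit Pfdn1 at 0.41 (adjusted p = 0.385), each against chow. In the HDAC9 knockout Stmn1 was followed by the microtubule-severing enzyme Spast at -0.47 (adjusted p = 0.664). Kupffer cell markers had higher means than chow in 9, 10 and 10 of 10 genes in the HDAC6 knockout, the HDAC9 knockout and on the high-fat diet, with 0 called by limma. Of these 10, 2, 5 and 6 had an unadjusted p under 0.05, beside 5.77%, 6.08% and 8.48% of all genes. The part of that shift in the values of these lists was not tested.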

How the data were processed

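Whole-liver RNA was measured on 12 Affymetrix Mouse430A arrays, from 100 ng of total RNA each per the labels' protocols. The authors deposited log2 expression values, 1 per probe set, after RMA (robust multi-array average), per the submitters' processing notes (software version and chip definition: not given in the sources used here). RMA normalizes arrays to a common distribution, so a shift shared by all genes would not show. No further normalization was applied, no array was left out, and 0 columns of the table went unused. The table has no detection calls, and the number of arrays limits the precision.

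A public platform annotation gave 20380 of 22626 probe sets 1 gene symbol, 691 several and 1555 none. A gene was read by its probe set of highest mean over the 12 arrays among those with 1 symbol, which left 12393 genes. Groups came from the sample titles. Differences were tested in R 4.3.3 with limma 3.58.1 (4 group means, mean-variance trend, two-sided, 14.3 moderated degrees of freedom), with Benjamini-Hochberg adjustment over all genes of a comparison and a threshold of 0.05. Tuba1b, Tuba1c and all further probe sets were adjusted over the 22626 probe sets. An exact rank test of 3 arrays a group reaches p = 0.1 at the lowest. Correlations used 100000 permutations in Python 3.11.15, two-sided, adjusted over 45 pairs. The tests were tried on simulated data. Named genes were the 10 genes and all their probe sets, Hdac6, Hdac9 and, in each of 8 lists, genes called or among the 2 smallest p-values. The genes, lists and tests were chosen with earlier results of these data known. Alternatives were the variance trend and prior, normalization, filter, probe-set choice, samples in the fit, a replicate block and each array left out; other probe sets in the correlations and the spread without each array were added after seeing the data. Deviations of same-numbered arrays correlated between -0.152 and 0.148, so no strong effect shared by replicate number was seen. Whether same-numbered arrays were processed together cannot be told from these values.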

Additional observations from a re-analysis of the deposited data

How the results depend on the processing

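Under every other setting tried (no variance trend, robust prior, quantile normalization, median centring, a filter at the 25th percentile of levels, the mean of probe sets, no probe sets ending in x_at, s_at or a_at, only the groups compared, and each array left out), the number of genes of the set called by limma was 0 in the F test and in all 6 comparisons, 153 counts in all, and leaving out each array in turn gave 0 to 0. With the replicate number as a block it was also 0. Of 996 recomputed log2 differences of single genes, 994 moved by less than the within-group standard deviation, none passed the threshold, and the lowest adjusted p was 0.429. The other 2 were Cttn in high-fat against chow, at 0.10 with the mean of probe sets, and Tubb2a in HDAC9 knockout against HDAC6 knockout, at -0.28 without x_at, s_at and a_at probe sets. The sign differed from that of the value with all arrays in 63, of which 51 came from leaving out an array, and none of these exceeded 0.33 in size. Many of the 996 could not move. The variance trend, prior, filter, groups in the fit and replicate block change the p-value but not the difference. Leaving out an array of a group not compared leaves the difference of the same probe set as it was. The counts of 994 and 63 are therefore not shares of values that were free to move. The correlation of Tuba1a and Tubb6 was -0.0561 with the other Tuba1a probe set, which is low and shared with a pseudogene. Over 16 alternatives the r of Tuba4a and Tubb4b ranged from 0.844 to 0.933, and of Tubb2a and Tubb4b from 0.568 to 0.965. It ranged from 0.739 to 0.971 for Tuba4a and Tubb2a, and from 0.426 to 0.887 for Tuba1b and Tubb5. Each pair was tried with only the next probe set of a single gene. Tuba4a and Tubb4b were thus not tried with Tuba4a 1417375_at (r -0.583 with the first) or the further Tubb4b probe sets. Tuba4a and Tubb2a were not tried with Tubb2a 1427838_at. The 16 did not include leaving out 2 arrays at once, which gave 0.571 for Tuba4a and Tubb2a. The 3 arrays of a group and the spread of Tubb2a limit what can be seen, as its 95% intervals show.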
